A study of Mus musculus with 24 samples.

Results

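The genes described here were 10 immediate early response genes, Fos, Fosb, Jun, Junb, Egr1, Ier2, Atf3, Dusp1, Zfp36 and Nr4a1, in visceral adipose tissue of mice with partial nephrectomy and with adipocyte expression of NaKtide. They were taken by name, as the rows of the raw count table whose identifiers carry these symbols in the GENCODE annotation of GRCm38. No measured value entered this rule, but the list was drawn up with earlier results of these data known. They were 10 of 54232 genes in the table, and 10 of 10 passed the filter of more than 10 counts summed over the 24 libraries, which left 26116 genes for testing.

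Immediate early genes are transcribed within minutes of a growth factor, hormone, stress or calcium signal from factors already present in the cell, without new protein synthesis. In the classical scheme, receptors signal through MAP kinases to the serum response factor with its ternary complex partners and to CREB, which bind the promoters of these genes, and their short-lived mRNAs encode both the next transcription factors and the proteins that end the response. In adipose tissue, adrenergic signals, insulin and the handling of the tissue itself are known to induce them, and the Na,K-ATPase/Src pathway that the NaKtide peptide is designed to block feeds into the same MAP kinase route.

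RNA was sequenced from C57BL6 mice, given as 10 weeks old in the description of the series and as male in the methods of the study, with 1 library per mouse and 6 mice in each of 4 groups. Control mice had a sham operation and a lentivirus encoding GFP, PNx mice had a 5/6 nephrectomy and the GFP virus, NaKtide mice had a sham operation and a lentivirus encoding NaKtide, and PNx+NaKtide mice had the nephrectomy and the NaKtide virus. All 24 mice, the controls included, therefore carried a lentivirus given intraperitoneally, in which the adiponectin promoter limits expression to adipocytes, and the NaKtide cassette was joined to GFP by a 2A peptide, so that no group lacked a virus or surgery. The time between surgery or virus and tissue collection is not given in the labels.

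The libraries held 679250 to 2979505 counts, and 3 counts corresponded to 0.739 to 5.91 CPM (counts scaled to library size, here with TMM factors from 0.733 to 1.48). Marker sums set 5 libraries apart. A list of 15 epididymis genes summed to 17.5 CPM in NaKtide replicate 6 and to at most 592 CPM in PNx replicates 1, 2, 3 and 6, against 703 to 2183 CPM in the other 19. The mesothelium sums were lowest in the same libraries (16.2 to 64.1 against 92.5 to 320 CPM). Most counts of that list were of the keratin genes Krt18, Krt8 and Krt19 (2592, 1661 and 1119 counts). Msln, Upk3b, Wt1 and Muc16 (21, 42, 57 and 235 counts) were highest in NaKtide replicate 6 and PNx replicates 6, 3 and 1. Upk1b and Lrrn4 were highest in other libraries, so the sum is mainly a reading of keratins. The adipocyte list (15 genes, led by Fabp4 and Plin4) was detected in every library but summed to 144 to 1412 CPM in 22 of them, against sums of 8807 for PNx replicate 6 and 6388 for NaKtide replicate 6, where endothelium sums (714 and 520 CPM, at most 140 elsewhere) were highest too. Erythrocyte genes reached 1628 CPM in PNx replicate 6, skeletal muscle genes 6430 CPM in NaKtide replicate 6 and fibroblast progenitor genes 525 CPM in PNx replicate 6. PNx replicates 1, 2 and 3 held the highest testis germ cell sums (1789, 1613 and 2082 CPM, at most 1376 elsewhere) and the lowest macrophage sums (173, 283 and 189 CPM, against 333 to 596 elsewhere). The macrophage sum was mainly a reading of Csf1r, with 13863 counts against 398 for the next gene, Cd163. Adgre1, Mrc1, Lyz2, C1qa, C1qb, C1qc and Cd14 were highest in PNx replicate 6, and Cd68, Cd163, Fcgr1 and Itgam in other libraries. Values without PNx replicates 1, 2 and 3, or without PNx replicate 6 and NaKtide replicate 6, are given below where they move a result most. Over the 24 libraries the median sum was 434 CPM for the adipocyte list, 1135 CPM for the epididymis list and 720 CPM for the testis germ cell list. The name visceral adipose tissue is that given by the study, and the share of adipose tissue in each library was not tested. In bulk tissue fewer cells of a type and less RNA per cell cannot be told apart.

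The strand of the reads limits each value below. The libraries were stranded, but the strand setting of the counting is not given in the sources used here. mt-Nd6, the only mitochondrial mRNA encoded on the strand opposite to the other 12, had 403137 counts per kb against 5968 for the 12 others, a ratio of 67.6 (21.0 to 194 per library), although its mRNA is normally the rarer. Genes with an exon opposite to another gene were 9103 of the 54232 genes and held 79.9% of all counts. Whether a count of an immediate early gene came from its own mRNA or from transcripts of the opposite strand was not tested gene by gene. The levels below, those of the marker lists included, are levels of counts as deposited and need not be levels of the named mRNA.

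The promoters of 8 of the 10 genes were found in the RefSeq table (GRCm38.p6), and Egr1 and Ier2 are named only. Windows of the 250 bases before the start site, 5′ to 3′, are shown for Nr4a1, Zfp36 and Dusp1, since Nr4a1 and Dusp1 had the largest differences between groups, and since Zfp36 and Dusp1 held the serum response factor and CREB motifs. Capitals mark CGTCA, the reverse complement of the short CREB motif TGACG, in Nr4a1 (chr15:101266596-101266845, plus strand; first bases 233, 213, 69 and 40 bases before the start), the CArG box bound by the serum response factor in Zfp36 (chr7:28379229-28379478, minus strand; 58 bases before the start), and the full CREB motif TGACGTCA in Dusp1 (chr17:26508473-26508722, minus strand; 143 bases before the start).
Nr4a1: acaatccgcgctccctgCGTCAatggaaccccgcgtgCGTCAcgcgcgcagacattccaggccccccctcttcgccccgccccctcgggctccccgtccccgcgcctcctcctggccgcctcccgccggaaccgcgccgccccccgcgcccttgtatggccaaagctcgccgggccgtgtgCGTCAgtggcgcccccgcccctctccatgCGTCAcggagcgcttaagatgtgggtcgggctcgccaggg
Zfp36: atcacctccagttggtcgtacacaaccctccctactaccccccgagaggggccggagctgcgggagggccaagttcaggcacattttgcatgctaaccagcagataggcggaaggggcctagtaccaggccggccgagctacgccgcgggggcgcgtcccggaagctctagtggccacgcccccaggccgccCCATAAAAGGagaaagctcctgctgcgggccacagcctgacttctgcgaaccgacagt
Dusp1: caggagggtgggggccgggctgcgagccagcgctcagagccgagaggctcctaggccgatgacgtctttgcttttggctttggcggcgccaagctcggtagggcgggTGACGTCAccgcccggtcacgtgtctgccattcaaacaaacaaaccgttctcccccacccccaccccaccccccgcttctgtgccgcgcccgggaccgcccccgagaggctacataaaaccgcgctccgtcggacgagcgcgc

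The CArG box was found, on either strand, in 482 of 32851 promoter windows of this length (1.47%), and among the 8 windows in Zfp36 only. TGACGTCA was found in 508 windows (1.55%), and among the 8 in Dusp1 only. TGACG, which also matches inside TGACGTCA, was found in 5836 windows (17.8%), and in 6 of the 8 (Fos, Fosb, Junb, Atf3, Nr4a1 and Dusp1). The EGR motif GCGNGGGCG was in 1543 windows (4.70%) and in 3 of the 8 (Fosb, Nr4a1 and Zfp36), and the AP-1 motif TGANTCA was in 2217 windows (6.75%) and in none of the 8. These matches describe letters in the windows and say nothing of binding in these samples.

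The 10 genes together had 6464 counts, which was 0.0155% of the 41811369 counts of the series. Per length, on the FPKM scale, Junb stood first with a mean of 39.98 FPKM over the 24 libraries. Nr4a1 followed with 7.92 FPKM, then Ier2 with 4.68, Jun with 3.00, Zfp36 with 2.56 and Dusp1 with 1.93 FPKM. Egr1 had a mean of 0.639 FPKM. Atf3 had 0.415, Fos 0.241 and Fosb 0.0995 FPKM.

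Fos, the founding partner of Jun in AP-1, had 23 counts over the whole series, and at least 1 count in 14 of 24 libraries. Fosb, its close paralog, had 25 counts in 13 libraries. Atf3, a stress-induced factor that pairs with Jun proteins, had 42 counts in 18 libraries. Only 2, 1 and 3 libraries had over 3 counts of Fos, Fosb and Atf3, and no library had over 6 counts of any of them. Their group medians lay between 0 and 1.21 CPM, at or under the 3 counts taken as the floor in nearly all libraries, and no fold is given.

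**Figure D1:**
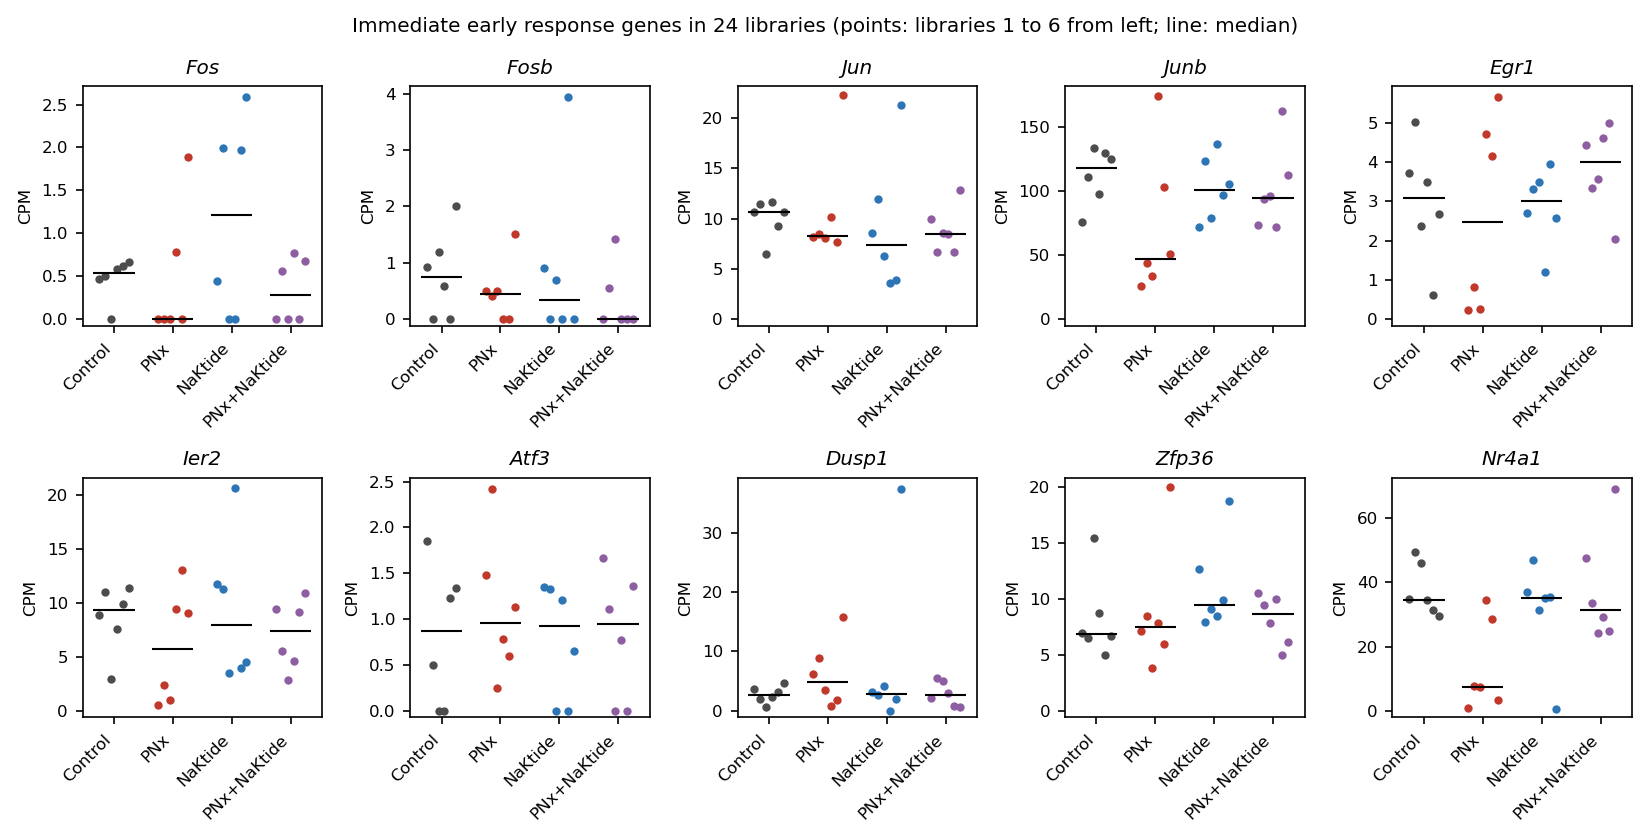
Level of each of the 10 genes in each of the 24 libraries, in CPM on a linear axis that differs by panel, with the 6 libraries of a group in order of replicate number from left to right and a line at the group median. Nr4a1 lies at or below 7.67 CPM in PNx replicates 1, 2, 3 and 6 and NaKtide replicate 6, while the groups overlap in every panel.

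The question of the first comparison was what experimental renal failure does to these genes in the tissue sampled. In PNx against Control, Nr4a1 and Junb had lower fitted levels, Dusp1 a higher one, and Jun, Egr1, Ier2 and Zfp36 differed by less than their standard errors, but none of the 10 genes passed the test (edgeR quasi-likelihood, adjusted p under 0.1), where 0.0766% of all genes did (20 genes, all lower). At an unadjusted p under 0.05, 1 of the 10 genes passed, Nr4a1, beside 25.4% of all genes. The median log2 fold change was -0.21 over the 10 genes and 0.36 over all genes. Of the 10 differences 7 were smaller than their own standard error, as in every other contrast. The share of all genes with so small a difference was not counted, so this is no result about the 10 genes. With DESeq2 size factors in place of TMM, 7971 of the 26116 tested genes were called higher and 725 lower, none of them among the 10. The median of all genes was 0.76 with those factors. DESeq2 itself called 0 of the 10, beside 7764 genes of the whole set (6861 higher and 903 lower). With limma voom and sample weights, which gave PNx replicates 4, 5 and 6 weights of 0.243, 0.242 and 0.170 against 0.930 to 1.80 for replicates 1, 2 and 3, 5 of the 10 genes passed (Fos, Junb, Egr1, Ier2 and Nr4a1, lower) beside 63.5% of all genes. The call of Fos there rests on 5 counts in Control and 6 in PNx. Without PNx replicate 6 and NaKtide replicate 6, 0 of the 10 passed beside 21.1%.

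Nr4a1 (ENSMUSG00000023034, chromosome 15, 101254269 to 101274795, plus strand) encodes the orphan nuclear receptor Nur77. It ranged from 29.4 to 49.5 CPM in Control (median 34.6) and from 0.739 to 34.5 CPM in PNx (median 7.49). All 6 PNx libraries lay below the Control mean and 5 of 6 below the lowest Control library, and the ranges overlapped through PNx replicate 4. PNx replicates 1, 2, 3 and 6 had 0.739, 7.67, 7.32 and 3.40 CPM, and replicates 4 and 5 had 34.5 and 28.5 CPM. This gave a log2 fold change of -1.49 ± 0.64 (SE, n = 6 and 6), with an adjusted p of 0.164 by edgeR, and -1.85 relative to the median of all genes. It was -0.78 ± 0.66 without PNx replicates 1, 2 and 3, and -1.29 ± 0.53 without PNx replicate 6 and NaKtide replicate 6. Leaving out PNx replicate 4 gave -2.01 with an adjusted p of 0.0582 (27.6% of all genes called), and leaving out PNx replicate 5 gave -1.86 with an adjusted p of 0.0791 (22.9% called).

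The 5 libraries with the lowest epididymis sums were also the 5 with the lowest Nr4a1 level. They held 0.647 to 7.67 CPM of Nr4a1, against 24.3 to 69.2 CPM in the other 19 libraries. The epididymis list does not hold Nr4a1, but the cut at 5 libraries does not fall at a wide gap of its sums (592 CPM below the cut, 703 CPM above). Of the 5 libraries 4 are PNx libraries, and the part of tissue composition in the difference between groups was not tested.

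Junb (ENSMUSG00000052837, chromosome 8, 84974484 to 84978718, minus strand), the most abundant AP-1 subunit here, ranged from 76.1 to 134 CPM in Control (median 118) and from 25.6 to 174 CPM in PNx (median 47.3). The PNx group held both the lowest libraries of the series (25.6, 44.0 and 33.3 CPM in replicates 1, 2 and 3) and the highest (174 CPM in replicate 4). The log2 fold change was -0.65 ± 0.38 (adjusted p = 0.259, edgeR), and -0.37 with DESeq2 size factors. It was -0.04 ± 0.35 without PNx replicates 1, 2 and 3, and without PNx replicate 4 it was -1.13 with an adjusted p of 0.0526.

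Jun (ENSMUSG00000052684, chromosome 4, 95049034 to 95052222, minus strand), the AP-1 subunit that pairs with Fos proteins, ranged from 6.51 to 11.7 CPM in Control (median 10.7) and from 7.72 to 22.3 CPM in PNx (median 8.31). Of the PNx libraries, 5 lay between 7.72 and 10.2 CPM and replicate 6 alone at 22.3 CPM. Its log2 fold change was 0.10 ± 0.40, and its sign turned to -0.24 without PNx replicate 6 and NaKtide replicate 6.

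Ier2 (ENSMUSG00000053560, chromosome 8, 84661331 to 84662852, minus strand), a small nuclear protein, ranged from 2.96 to 11.4 CPM in Control (median 9.34) and from 0.493 to 13.1 CPM in PNx (median 5.74). Egr1 (ENSMUSG00000038418, chromosome 18), a zinc finger factor downstream of MAP kinase, ranged from 0.617 to 5.00 CPM in Control (median 3.09) and from 0.246 to 5.66 CPM in PNx (median 2.48). For both genes PNx replicates 1, 2 and 3, the libraries of highest germ cell and lowest macrophage sums, were low, with 0.493, 2.42 and 1.01 CPM of Ier2 and 0.246, 0.808 and 0.252 CPM of Egr1, while PNx replicates 4 to 6 lay among or above the Control libraries. The low values came from 2, 6 and 4 counts of Ier2 and from 1, 2 and 1 counts of Egr1, the latter all under the floor of 3 counts. The log2 fold changes of -0.59 ± 0.60 for Ier2 and -0.26 ± 0.61 for Egr1 became 0.29 ± 0.52 and 0.68 ± 0.53 without those 3 libraries. The part of these marker shifts in the values of Junb, Ier2 and Egr1 was not tested.

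The feedback genes took other values. Dusp1 (ENSMUSG00000024190, chromosome 17, 26505590 to 26562128, minus strand), the phosphatase that switches off MAP kinases, ranged from 0.592 to 4.68 CPM in Control (median 2.71) and from 0.785 to 15.9 CPM in PNx (median 4.85). PNx replicates 1, 2 and 6, with 6.16, 8.88 and 15.9 CPM, exceeded every Control library, and replicates 4 and 5 had at most 1.78 CPM. For Dusp1 the log2 fold change was 1.18 ± 0.78 (adjusted p = 0.313, edgeR) and 0.68 ± 0.60 without PNx replicate 6 and NaKtide replicate 6.

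Zfp36 (ENSMUSG00000044786, chromosome 7, 28376784 to 28380253, minus strand), which encodes tristetraprolin and marks AU-rich mRNAs for decay, ranged from 4.94 to 15.4 CPM in Control (median 6.83) and from 3.78 to 20.002 CPM in PNx (median 7.50). PNx replicate 6 again held the highest value and the other 5 lay between 3.78 and 8.48 CPM. Its log2 fold change was 0.11 ± 0.40, and -0.31 ± 0.36 without PNx replicate 6 and NaKtide replicate 6.

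**Figure D2:**
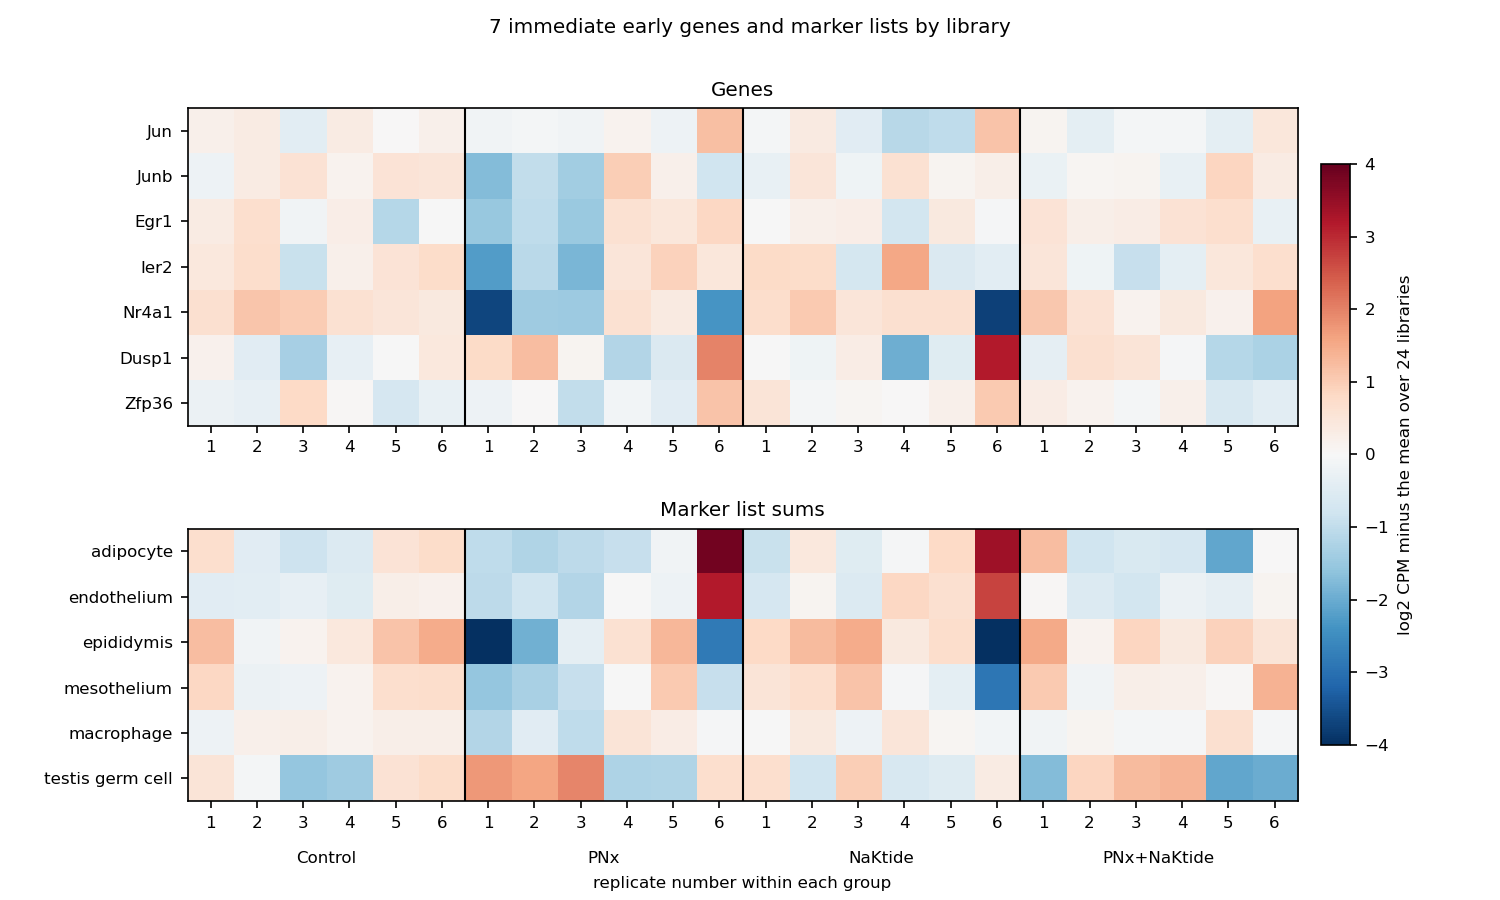
Heat map of the 7 genes with a fold (top, log2 CPM with a prior count of 2) and of 6 marker list sums (bottom, log2 of the summed CPM) in the 24 libraries, each row minus its mean over the libraries on a log2 scale cut off at 4 either way, with columns as replicates within each group. Nr4a1 is lowest in the 5 columns where the epididymis list is lowest, and Dusp1 is highest in the columns of PNx replicate 6 and NaKtide replicate 6, where the adipocyte list is highest.

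A second comparison asked whether adipocyte NaKtide alters the state of the PNx tissue. It shares the PNx libraries with the first, so that a value set by PNx replicates 1, 2 and 3 enters both with opposite sign, and the values stand here side by side without a measure of likeness. In PNx+NaKtide against PNx, 0 of the 10 genes passed the test, as did 0% of all genes. At an unadjusted p under 0.05, 1 of the 10 (Nr4a1) and 12.7% of all genes passed, and the median log2 fold change was -0.19 over the 10 genes against -0.37 over all. With voom and sample weights the same 5 genes as above passed, higher, beside 42.4% of all genes.

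Nr4a1 ranged from 24.3 to 69.2 CPM in PNx+NaKtide (median 31.3), and 6 of 6 libraries lay above the PNx mean of 13.7 CPM. The log2 fold change was 1.51 ± 0.64 (adjusted p = 0.370, edgeR), 1.88 relative to the median of all genes, and 0.80 ± 0.66 without PNx replicates 1, 2 and 3. Because PNx replicates 4 and 5 were as high as the lower PNx+NaKtide libraries, the groups overlapped.

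Junb ranged from 72.2 to 162 CPM in PNx+NaKtide (median 94.7), a log2 fold change of 0.51 ± 0.38 that was -0.10 ± 0.34 without PNx replicates 1, 2 and 3. Egr1 ranged from 2.04 to 4.99 CPM (median 4.0) and Ier2 from 2.86 to 10.9 CPM (median 7.36), with log2 fold changes of 0.60 ± 0.62 and 0.31 ± 0.60. These turned to -0.35 ± 0.53 and -0.56 ± 0.53 without the same 3 libraries. The spread of each of these genes was thus narrower in PNx+NaKtide than in PNx, and the difference in spread was not tested.

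Jun ranged from 6.65 to 12.9 CPM in PNx+NaKtide (median 8.51, log2 fold change -0.28 ± 0.40) and Zfp36 from 4.99 to 10.5 CPM (median 8.67, -0.12 ± 0.40), both within their standard errors of PNx. Dusp1 ranged from 0.679 to 5.57 CPM (median 2.64), with a log2 fold change of -1.08 ± 0.78 (adjusted p = 0.489, edgeR) and of -0.57 ± 0.60 without PNx replicate 6 and NaKtide replicate 6.

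**Figure D3:**
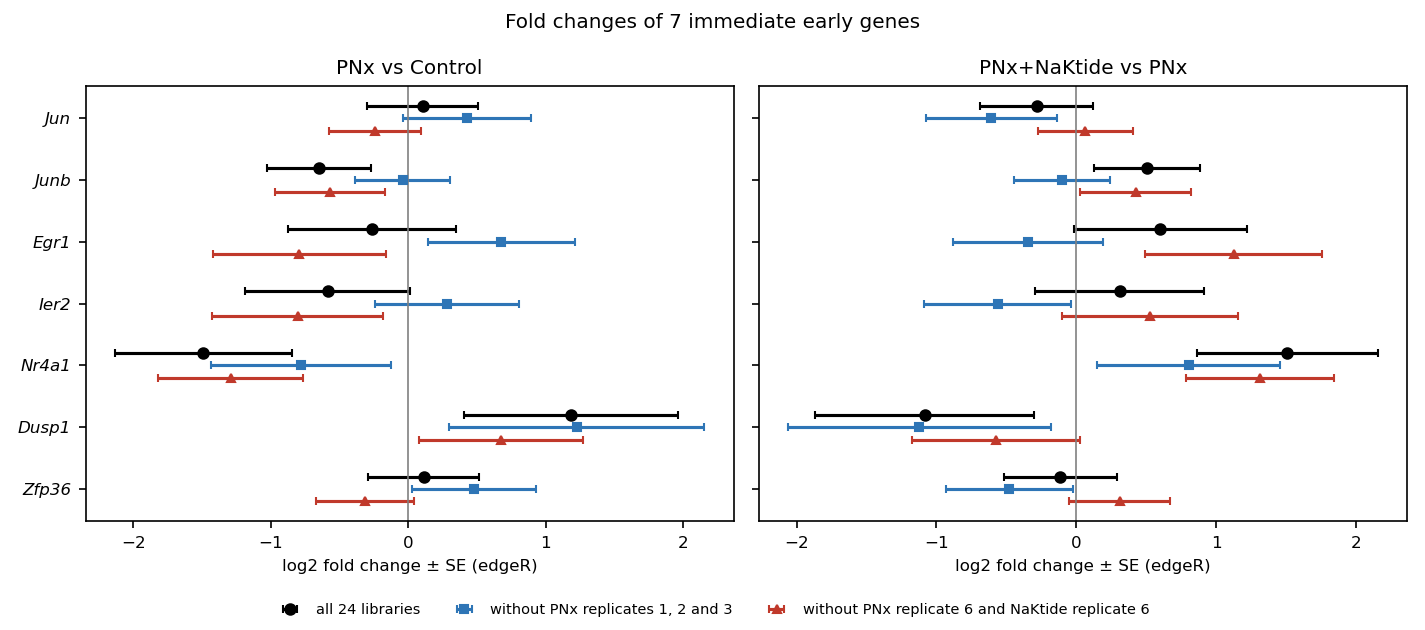
Log2 fold changes of 7 genes with their standard errors by edgeR in PNx against Control (left) and PNx+NaKtide against PNx (right), from all 24 libraries and without the 2 sets of libraries that stood apart. Nr4a1 keeps its sign in each panel, at -1.49, -0.78 and -1.29 on the left, while Egr1 and Ier2 change sign without PNx replicates 1, 2 and 3.

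In sham mice, NaKtide against Control, 0 of the 10 genes and 0% of all genes passed the test (1 of the 10 and 3.95% of all genes at an unadjusted p under 0.05). That gene was Dusp1, which ranged from 0 to 37.5 CPM in NaKtide (median 2.90). The 5 other NaKtide libraries had at most 4.19 CPM, and NaKtide replicate 6 alone had 37.5 CPM. The log2 fold change of 1.63 ± 0.79 (adjusted p = 1, edgeR) was -0.09 without that library. Nr4a1 ranged from 0.647 to 47.1 CPM in NaKtide (median 35.3, log2 fold change -0.28 ± 0.63), again with replicate 6 alone at the low end, since the others lay at 31.4 CPM or above, and the log2 fold change was -0.016 without PNx replicate 6 and NaKtide replicate 6. Junb (72.1 to 137 CPM, -0.13 ± 0.38), Egr1 (1.21 to 3.94 CPM, -0.07 ± 0.63) and Ier2 (3.49 to 20.6 CPM, 0.11 ± 0.60) differed from Control by less than their standard errors. Jun (3.63 to 21.3 CPM) had -0.07 ± 0.41, and -0.48 ± 0.35 without PNx replicate 6 and NaKtide replicate 6, the latter of which held the highest value. Zfp36 ranged from 7.96 to 18.7 CPM (median 9.46, 0.45 ± 0.41).

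For nephrectomy in NaKtide mice, PNx+NaKtide against NaKtide, 0 of the 10 genes and 0% of all genes passed the test, and 0 of the 10 and 4.09% of all genes did at an unadjusted p under 0.05. The log2 fold changes ranged from -1.53 ± 0.80 for Dusp1, which was 0.19 without NaKtide replicate 6, to 0.41 ± 0.64 for Egr1, among the 7 genes with a fold. Nr4a1 differed by 0.30 ± 0.63, and by 0.035 without PNx replicate 6 and NaKtide replicate 6. The difference between the nephrectomy effects with and without NaKtide (interaction) passed the test for 0 of the 10 genes and 0% of all genes, and for 1 of the 10 and 9.27% at an unadjusted p under 0.05. It was -2.71 ± 1.11 for Dusp1 (adjusted p = 0.497, edgeR), and -0.50 ± 0.89 without PNx replicate 6 and NaKtide replicate 6, with a range of -3.16 to -0.99 when each library was left out in turn. For Nr4a1 it was 1.79 ± 0.90 (adjusted p = 0.553, edgeR), and 1.08 ± 0.83 without PNx replicates 1, 2 and 3. With voom, 4 of the 10 (Junb, Egr1, Ier2 and Nr4a1) passed beside 25.2% of all genes.

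When the 4 groups were ordered by mean level for each gene, 1 of the 30 neighbouring pairs differed by more than the larger of the 2 standard deviations. That pair was NaKtide (31.1 ± 15.8 CPM, SD, n = 6) and PNx (13.7 ± 14.2 CPM) for Nr4a1, whose order was completed by PNx+NaKtide (38.1 ± 17.5 CPM) and Control (37.6 ± 8.22 CPM) above them. In none of the 30 pairs did the ranges of the groups lie apart. The same ordering was not made for all tested genes. Whether these counts of pairs are usual for the series was therefore not tested.

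Of the 10 genes, 4 have an exon opposite to another gene. Jun lies opposite to Junos, an antisense RNA that shares 232 bases of exon with it (7.28% of the exon bases of Jun). Junos had 2587 counts against 443 for Jun and was the higher in 24 of 24 libraries. It ranged from 8.62 CPM in PNx replicate 1 to 158 CPM in NaKtide replicate 6, with a log2 fold change of -1.03 ± 0.44 in PNx against Control (adjusted p = 0.161, edgeR). Jun had 0.10 ± 0.40 in the same comparison, and the difference between the pair was not tested.

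Zfp36 lies opposite to Gm44710, an antisense RNA sharing 125 bases, which had 4706 counts against 394 and was the higher in 24 of 24 libraries (log2 fold change -0.30 ± 0.29). Dusp1 shares 11 bases with Ergic1 (725 counts against 239, higher in 22 of 24 libraries, 0.23 ± 0.45). Junb shares 173 bases with Prdx2, a peroxiredoxin gene, and was the higher of the pair in every library, with 3722 counts against 755 (Prdx2 -0.08 ± 0.40). Fos, Fosb, Egr1, Ier2, Atf3 and Nr4a1 have no exon opposite to an annotated exon of another gene. The limit of strand given above holds for them too, Nr4a1 included. The lack of an annotated opposite exon does not show which strand their counts came from.

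**Figure D4:**
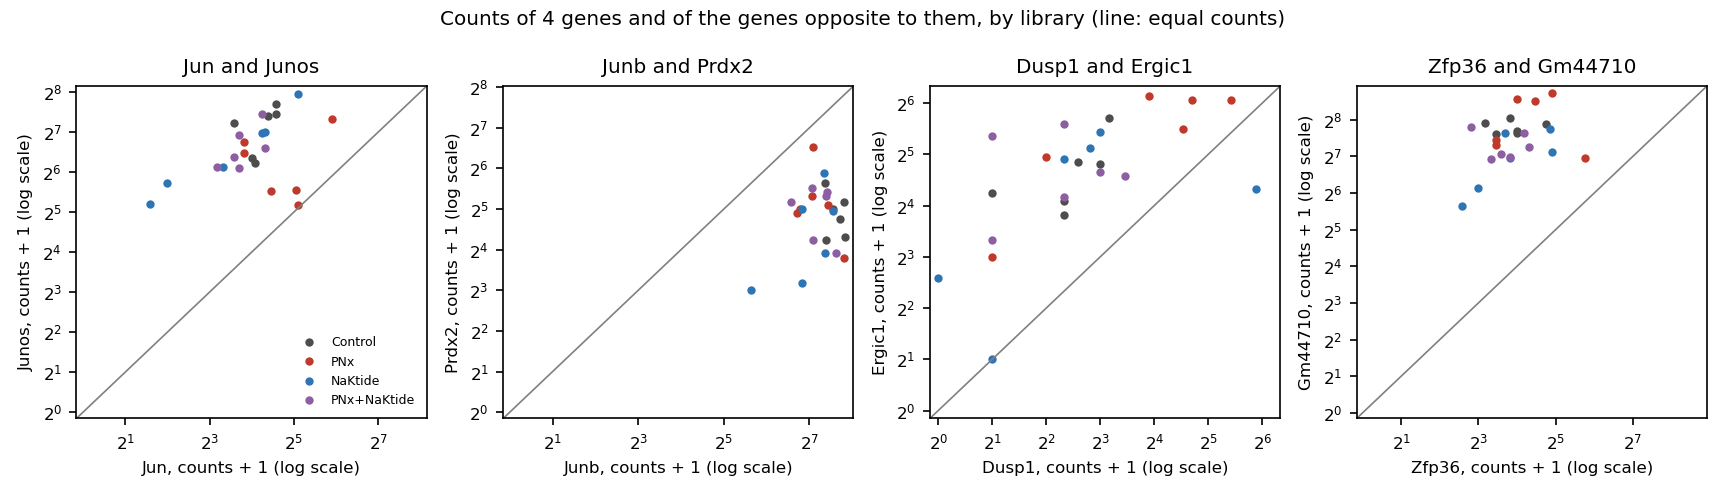
Counts per library of Jun, Junb, Dusp1 and Zfp36 (horizontal) and of the gene opposite to each (vertical), as counts + 1 on logarithmic axes, with points as libraries coloured by group and a line at equal counts. Junos and Gm44710 lie above the line in 24 of 24 libraries and Prdx2 below it in 24 of 24.

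Across the 24 libraries the genes did not move as a single block. As a description over libraries that share group and composition, the Pearson correlation of log2 CPM was 0.67 for Junb and Ier2, 0.62 for Junb and Nr4a1, 0.56 for Ier2 and Nr4a1, and 0.48 for Junb and Egr1. Jun and Dusp1 had 0.60. Dusp1 and Nr4a1 had -0.76 and Junb and Dusp1 -0.48. The summed level of the 10 genes was lowest in PNx replicates 1, 3 and 2 (50.5, 58.0 and 83.6 CPM), and lay between 131 and 243 CPM in the other 21 libraries. This sum is mainly a reading of Junb, with 3722 of the 6464 counts, and of Nr4a1, with 1154. Dusp1 was not low in those 3 libraries (6.16, 3.53 and 8.88 CPM, against a Control median of 2.71 CPM).

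The genes whose levels followed the mean profile of the 10 genes most closely, among 8476 other named genes with a mean of at least 5 CPM, were Atraid (Pearson r = 0.863 over 24 libraries), Mpnd (0.863), Ltbp4 (0.860), Tinagl1 (0.852), Ttc38 (0.852), Xbp1 (0.847), Vegfb (0.846) and Arhgap27os2 (0.845). All 8 were lowest in PNx replicate 1, where the mean profile of the 10 genes was lowest too. They were selected for their likeness to that profile, so the shared low point is no separate result. Xbp1, a transcription factor of the unfolded protein response, went from 0.493 CPM there to 56.6 CPM in PNx replicate 6, and Vegfb, a vascular growth factor, from 0.986 to 40.4 CPM.

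Other genes of the response were read from 3 lists. Of 18 further immediate early transcription factors 17 were tested and 0 passed in any of the 5 contrasts, and in PNx against Control 3 were higher and 2 lower at an unadjusted p under 0.05 (18.5% and 6.88% of all genes), with a median log2 fold change of -0.09 beside 0.36 for all genes. Jund, the AP-1 subunit that is present at rest, ranged from 46.3 to 79.4 CPM in Control (median 60.2) and from 14.0 to 48.7 CPM in PNx (median 27.2). Its log2 fold change was -1.03 ± 0.34 (adjusted p = 0.134) in PNx against Control and 0.98 ± 0.34 (adjusted p = 0.357, edgeR) in PNx+NaKtide against PNx. Cebpd, a C/EBP factor of early adipogenesis, ranged from 34.8 to 58.6 CPM in Control and from 20.9 to 62.8 CPM in PNx (-0.12 ± 0.31). Csrnp1 ranged from 2.92 to 31.5 CPM in Control and from 3.93 to 206 CPM in PNx (2.13 ± 1.01), and the exons of Jund, Cebpd and Csrnp1 lie opposite to those of Gm11175, Spidr and 1700019L13Rik.

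Of 28 further effectors and feedback genes 28 were tested and 0 passed, with 3 higher and 2 lower at an unadjusted p under 0.05 in PNx against Control beside 18.5% and 6.88% of all genes, and a median log2 fold change of 0.43 beside 0.36. Dusp4, a nuclear MAP kinase phosphatase, ranged from 34.5 to 86.9 CPM in Control (median 56.8) and from 2.46 to 52.9 CPM in PNx (median 10.5). Its log2 fold change was -1.46 ± 0.56 (adjusted p = 0.145, edgeR). Ier5 had 1.96 ± 0.79 (adjusted p = 0.152) and Rhob, a small GTPase, 0.32 ± 0.62.

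Among 34 genes upstream of the response, kinases and promoter factors, 34 were tested and 0 passed, with 4 higher and 1 lower at an unadjusted p under 0.05 in PNx against Control beside the same 18.5% and 6.88% (median log2 fold change 0.47 beside 0.36). Ep300, the acetyltransferase recruited by CREB, ranged from 33.3 to 49.0 CPM in Control and from 12.5 to 44.0 CPM in PNx (-0.77 ± 0.33, adjusted p = 0.160, edgeR).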

How the data were processed

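RNA from visceral adipose tissue of 24 mice, 1 library per mouse, was grouped by the operation and the expressed protein given in the labels. Per the methods and the submitters' processing notes, the authors trimmed paired reads with Trimmomatic 0.38, aligned them to GRCm38 with HISAT2 2.1.0 and obtained gene counts with GenomicAlignments. They used DESeq2 1.20.0. The annotation release and the strand setting are not given in the sources used here. Raw counts deposited by the authors were tested here, and the FPKM deposited beside them served for levels per length and alternatives. Their normalized table was not used. No column of per-sample values lacked a sample.

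Symbols and coordinates came from GENCODE (54165 of 54232 identifiers, 99.9%), and promoters from RefSeq. Cyr61, Ctgf, Mkl1 and Mkl2 were read under their current symbols. Genes whose counts over all libraries exceeded 10 in sum were fitted with 4 group means in edgeR 4.0.16 (TMM, robust quasi-likelihood test, R 4.3.3), with Benjamini-Hochberg adjusted p under 0.1 as the threshold, as in the study. The biological coefficient of variation was 71.4%. Standard errors of edgeR fold changes were computed as the absolute log2 fold change over the square root of the F statistic. They are unstable where the fold change is small. CPM in the text uses TMM-scaled library sizes, and log2 CPM adds a prior count of 2. P-values measure the spread between mice. Alternatives used limma 3.58.1, DESeq2 1.42.0, other filters and scalings, a pseudocount of 1 or 0.1 on FPKM, and left-out libraries. The fits were tested on simulated data.

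The 10 genes, the lists and the libraries left out together were chosen with earlier results of these data known. Named beside the 10 genes were each gene with an exon opposite to theirs, the 3 most abundant genes of each list, as none was called (some are not reported here), the 8 genes of most similar profile, mt-Nd6 and marker genes. Of replicate pairs, Control replicates 5 and 6 were the closest, with a chi-square per degree of freedom of 1.57, above counting error. Each of the 9 marker lists (adipocyte, epididymis, macrophage, mesothelium, endothelium, fibroblast progenitor, skeletal muscle, erythrocyte, testis germ cell) was summed per library and not tested.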

Additional observations from a re-analysis of the deposited data

Results flagged for a closer look

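In 8 of 40 groups of 6 libraries (10 genes in 4 groups) the highest or lowest library lay far from the others, with a gap, relative to the range of the group, above Dixon's 95% critical value. For normally distributed values about 1 in 20 such groups would pass by chance. CPM from few counts need not be so distributed, so the 8 groups cannot be set against that rate. PNx replicate 6 was the high library for Jun (22.3 CPM against a PNx median of 8.31), Zfp36 (20.002 against 7.50) and Fosb (1.51 against 0.448, where 3 counts correspond to 1.13 CPM in that library). NaKtide replicate 6 was the high library for Dusp1 (37.5 CPM against a NaKtide median of 2.90) and the low library for Nr4a1 (0.647 against 35.3 CPM). These are the libraries with the highest adipocyte sums (8807 and 6388 CPM), and the part of adipocyte content in the values was not tested.

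Control replicate 3 was the high library for Zfp36 (15.4 CPM against a median of 6.83) and the low library for Fos, with 0 CPM, where no Control library had over 1 count. NaKtide replicate 5, the library with the fewest counts (679250), was the high library for Fosb at 3.94 CPM, which came from 2 counts and lay under the 5.91 CPM that 3 counts make there.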

How the results depend on the processing

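The number of genes called in PNx against Control, 20 with the settings of the text, was 0 at an adjusted p under 0.05, 8696 with DESeq2 size factors, 4102 with library size scaling, 1 with no filter on low counts, 2159 with filterByExpr, 0 with the compared groups alone, 7764 with DESeq2, 16578 with limma voom and sample weights, 7 and 7 with limma on log2(FPKM + 1) and log2(FPKM + 0.1), 0 without PNx replicates 1, 2 and 3, 5497 without PNx replicate 6 and NaKtide replicate 6, and 0 to 7213 with each library left out in turn. For PNx+NaKtide against PNx (0 in the text) it was 1514 with DESeq2, 11071 with voom, and 4 and 4 on FPKM. For NaKtide against Control it was 3, 2, 1 and 2 in the same order, for PNx+NaKtide against NaKtide 2 with DESeq2 and 1 on log2(FPKM + 0.1), and for the interaction 94 with DESeq2, 6593 with voom and 0 to 1 with each library left out. The labels do not say whether libraries of the same replicate number were pairs, and they were not treated as such in the text. Correlations of their deviations from the group means ran from -0.592 to 0.712, which does not settle it. The replicate block gave 1 gene called in PNx against Control and 2 in the interaction.

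The number of the 10 genes called stayed at 0 except in 2 cases. With voom and sample weights it was 5 in PNx against Control (Fos, Junb, Egr1, Ier2 and Nr4a1, lower), 5 in PNx+NaKtide against PNx (higher) and 4 in the interaction, beside 63.5%, 42.4% and 25.2% of all genes. With each library left out it was 0 to 2, the exceptions being PNx replicate 4 (Junb and Nr4a1) and PNx replicate 5 (Nr4a1).

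Of 731 values of 20 single-gene fold changes, 694 kept direction and side of the threshold, 25 reversed and 12 passed the threshold only under the alternative. In PNx against Control the log2 fold change became, for Jun, -0.0149 with the replicate block, -0.23 with voom and -0.24 without PNx replicate 6 and NaKtide replicate 6 (the pair). For Egr1 it became 0.68 and for Ier2 0.29 without PNx replicates 1, 2 and 3, and for Zfp36 -0.42 with voom and -0.31 without the pair. In PNx+NaKtide against PNx it became, for Jun, 0.005038 with voom and 0.064 without the pair, for Junb, Egr1 and Ier2 -0.10, -0.35 and -0.56 without PNx replicates 1, 2 and 3, and for Zfp36 0.54 with voom and 0.31 without the pair. For Dusp1 it became -0.075 in NaKtide against Control without the pair, and 0.13 with voom and 0.18 without the pair in PNx+NaKtide against NaKtide. With each library left out in turn, Jun ran from -0.24 to 0.18, Egr1 from -0.77 to 0.0037 and Zfp36 from -0.31 to 0.39 in PNx against Control. In PNx+NaKtide against PNx, Jun ran from -0.42 to 0.0636 and Zfp36 from -0.28 to 0.31. Dusp1 ran from -0.0915 to 1.87 in NaKtide against Control and from -1.94 to 0.19 in PNx+NaKtide against NaKtide. The cause of these reversals was not tested.

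Egr1 and Dusp1 gave no value under filterByExpr, and the interaction has no fit of the compared groups alone. Depth limits Fos, Fosb and Atf3, which had 3 counts or fewer in all but 2, 1 and 3 libraries. It also limits Egr1 and Dusp1, which had over 3 counts in 17 of the 24 libraries each.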
